A study of Mus musculus with 8 samples.

Results

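The genes described here encode the semaphorins and their main receptors, the plexins and neuropilins. They were taken by symbol from the count tables: every symbol of the series Sema3a to Sema7a, every plexin symbol from Plxna1 to Plxnd1, and Nrp1 and Nrp2. This gave 31 of the 55341 genes in the tables, of which 20 are ligands (semaphorins) and 11 are receptors (9 plexins and 2 neuropilins). The RNA came from sorted nuclei of GABAergic neurons, the inhibitory neurons, of the cortex of juvenile mice, with 1 library per mouse. In both groups the mice were hypothyroid, because their mothers had been treated during pregnancy with propylthiouracil (PTU), which blocks thyroid hormone synthesis. In both groups a Cre/loxP reporter marked the nuclei of GABAergic neurons. Mice 9 to 12 form the PTU group (n = 4) and are labelled with PTU only. Mice 13 to 16 form the PTU+TH group (n = 4), which was injected intraperitoneally with thyroid hormone (TH), and their brains were taken 24 h later. A group with normal thyroid function was not analysed here, and the labels name neither the Cre driver nor the hormone dose, exact age, litter or sex.

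Semaphorins are secreted, transmembrane or membrane-anchored proteins that steer growing axons, dendrites and migrating neurons, mostly by repulsion. Plexins carry the signal into the cell through an intracellular domain that acts on small GTPases, and neuropilins are co-receptors that let most of the secreted class 3 semaphorins bind to A-type plexins. Cortical interneurons are known to use this system during their migration from the ventral forebrain, when neuropilins keep them out of the striatum, and semaphorins continue to act on synapses after birth. Many members are made both by neurons and by other cells, such as those of blood vessels and the oligodendrocyte lineage.

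Each library held between 21.8 and 29.1 M counts, and totals overlapped between the groups (means 24.0 M, SD 1.39, for PTU and 24.1 M, SD 3.37, for PTU+TH, with n = 4 in each group and p = 1 in a two-sided exact permutation test whose smallest possible p is 0.0286). The pan-GABAergic markers summed to between 2242 and 2686 CPM (counts per M library counts, TMM-scaled) in PTU and between 2125 and 2325 CPM in PTU+TH, against 242 to 276 and 239 to 320 CPM for the 8 markers of excitatory neurons. Markers of astrocytes summed to between 132 and 246 CPM in PTU and between 134 and 372 CPM in PTU+TH, and those of microglia to between 10.3 and 16.3 and between 14.6 and 33.5 CPM. All 6 tested microglial markers had positive log2 fold changes (median 0.85), 0 were called, and mouse 15 was highest for each. Among markers of interneuron classes, Syt2 and Nefh (of 6 tested in the PV class) and Gabrd (of 6 in the LAMP5 class) rose, while Calb1 (of 6 in the SST class) and Htr3a (of 6 in the VIP class) fell, where 2.12% of all genes tested were called. All 6 VIP-class markers had negative log2 fold changes, and their sum ran from 247 to 382 CPM in PTU and from 239 to 260.5 CPM in PTU+TH. In all, 6 markers were at 0 in every library (Dlx1, Dlx6, Cox6a2, Gfap, Gpr17 and P2ry12), and each of the 6 lies wholly inside another gene, where all such genes were at 0 and a 0 is not read as absence. Counts of Y-linked genes were 0 in PTU+TH mice 15 and 16 and between 7960 and 11548 in the other 6 libraries. In bulk libraries such as these, fewer cells of a type and less RNA per cell cannot be told apart.

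The members covered a wide range of levels. Set per kb of gene body that no other gene covers, Plxna3, a receptor for class 3 semaphorins, was highest, with a mean of 9.20 CPM per kb over the 8 libraries, and Sema6c, a transmembrane ligand, was next with 8.78. Sema4g followed with 5.39 and Sema6b with 3.43 CPM per kb. The 2 highest overlapped in their libraries, between 6.84 and 12.2 CPM per kb for Plxna3 and between 8.02 and 9.97 for Sema6c, so their order does not exceed the spread. At the low end stood Sema3d with 0.058 and Sema3g with 0.0169 CPM per kb. Among the class 3 ligands, Sema3e, Sema3f and Sema3c stood close together, at 0.29, 0.27 and 0.268 CPM per kb.

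The order depends on the length used. Per kb of exon, the very long genes Plxna4 and Sema6d were highest, with means of 51.0 and 43.7 CPM per kb, then Sema6a, Plxna2 and Sema6c with 31.3, 23.2 and 20.1, and Plxna3 had 18.2. On both scales Sema3g was lowest (0.0465 CPM per kb of exon). Nrp1 stood above Nrp2 on both scales, with 0.364 and 0.241 CPM per kb of free gene body and 5.38 and 2.23 CPM per kb of exon.

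**Figure D1:**
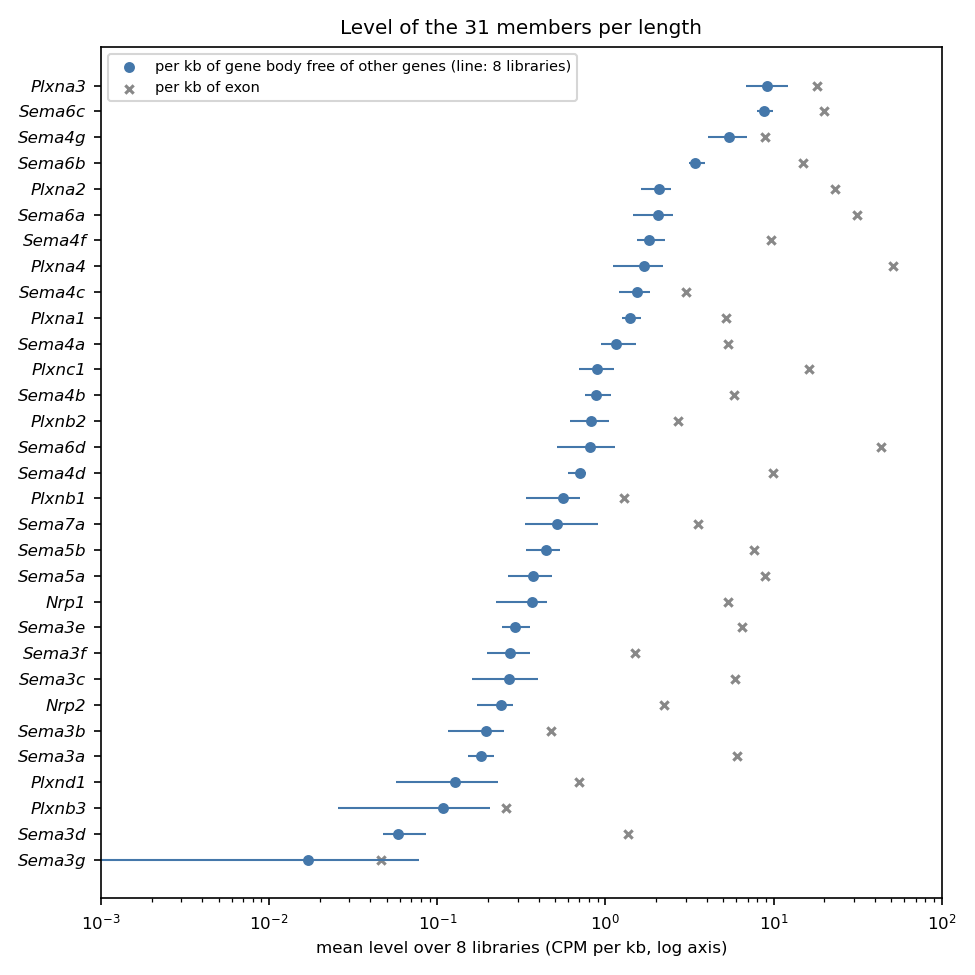
Mean level of the 31 genes over the 8 libraries, in CPM per kb on a log axis. Points are scaled by the length of gene body free of other genes, with a line from the lowest to the highest library (for Sema3g the line runs to 0 and is shortened at the left edge), and crosses are scaled by exon length. Plxna3 and Sema6c are highest by gene body, and Plxna4 and Sema6d by exon length.

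The comparison of PTU+TH with PTU asked which ligand and receptor transcripts differed a day after TH was given. Of the 31 genes, 30 had enough counts to be tested, all but Sema3g. At an adjusted p under 0.05 (edgeR quasi-likelihood test, Benjamini-Hochberg over 17355 genes), 2 ligands, Sema3c and Sema7a, rose, while 0 receptors and 0 other ligands were called. This is 2 of 30 genes, or 6.67%, against 2.12% of all genes tested. At an unadjusted p under 0.05 there were 11 of 30 (36.7%, against 12.8% of all genes), 3 of them higher and 8 lower in PTU+TH. The libraries of the groups did not overlap for 7 of 30 (23.3%, against 8.71% of all genes), namely Sema3c and Sema7a on the higher side and Sema5b, Sema6a, Plxna3, Plxnb2 and Nrp2 on the lower side.

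Signs of the difference were counted by role. Of 19 tested ligands, 8 had positive and 11 negative log2 ratios (log2 fold changes of PTU+TH over PTU), with a median of -0.09. Of 11 receptors, 3 were positive and 8 negative, with a median of -0.19. The median over all genes tested was -0.01. The difference between ligands and receptors was not tested.

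**Figure D2:**
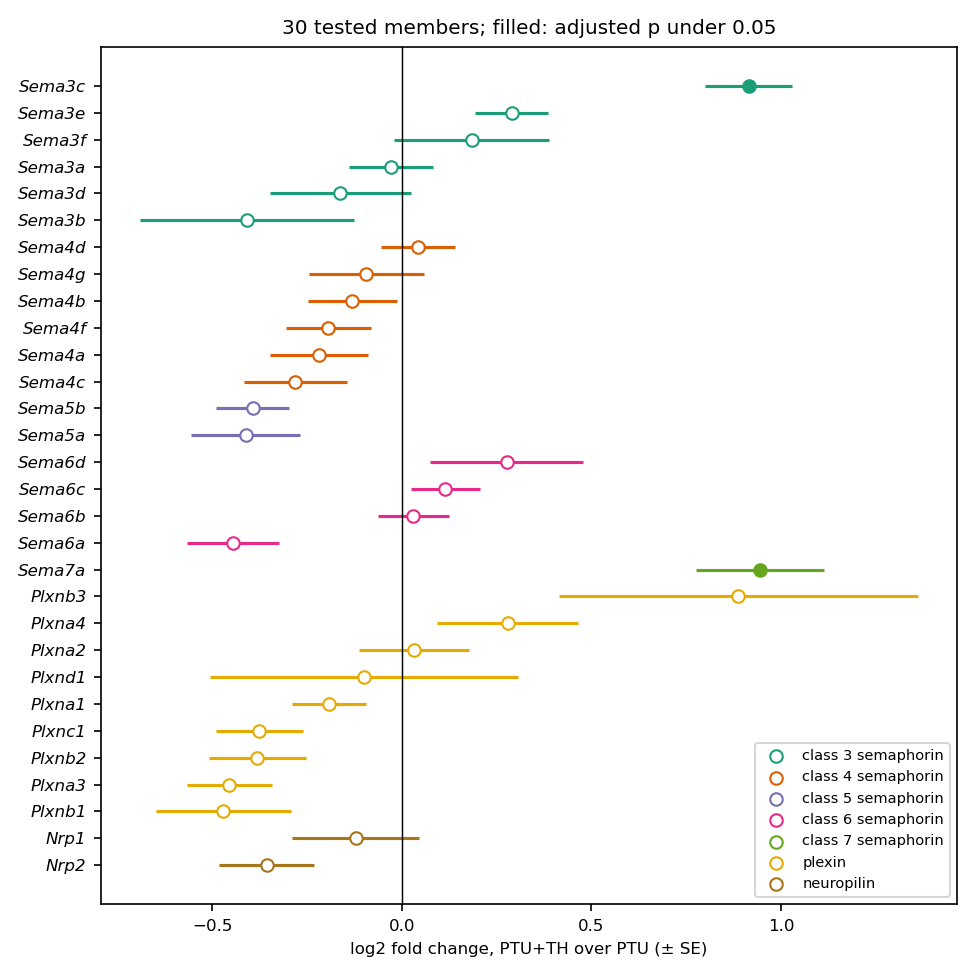
Log2 ratio, PTU+TH over PTU, with its standard error, for the 30 tested genes, ordered by class. Filled points passed an adjusted p under 0.05: only Sema3c at 0.92 and Sema7a at 0.94 do, while 8 of the 11 receptors lie to the left of 0.

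Among the secreted class 3 ligands, most of which bind neuropilins, 1 of 6 tested genes was called, where 2.12% of all genes tested were. Sema3c (ENSMUSG00000028780.13, GRCm38 chromosome 5, 17574281 to 17730268, plus strand) is known as a ligand that acts through neuropilins together with plexins such as PlexinD1. It stood at 30.8, 28.9, 25.0 and 31.3 CPM in PTU mice 9 to 12 and at 52.5, 45.8, 61.9 and 58.7 CPM in PTU+TH mice 13 to 16. Every PTU+TH library lay above every PTU library, and the lowest PTU+TH value was well above the highest PTU value. The group means came to 29.0 ± 2.85 and 54.7 ± 7.10 CPM (SD, n = 4 each), a 1.89-fold rise (log2 ratio 0.92 with SE 0.12 and edgeR adjusted p = 0.00095). The rise was called whichever of the 8 libraries was dropped. In the 6 libraries with Y-linked counts the log2 ratio was 0.76, with an edgeR adjusted p of 0.0504.

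The other class 3 genes were not called. Sema3e, a ligand that binds PlexinD1 without a neuropilin, stood at 51.0, 53.7, 58.4 and 55.2 CPM in the PTU mice, against 57.3, 65.0, 70.3 and 74.2 CPM after TH. In 3 of 4 PTU+TH mice it was above all PTU mice, and the groups overlapped through mouse 13 (log2 ratio 0.29 with SE 0.10 and edgeR adjusted p = 0.182). Sema3a, the founding axon repellent of the class, had means of 85.4 ± 12.2 and 83.7 ± 7.34 CPM (SD, n = 4 each), and its log2 ratio was -0.03 with an SE of 0.11. Sema3d and Sema3f had log2 ratios of -0.16 and 0.18, with SEs of 0.19 and 0.21, and overlapping libraries. Sema3b was scarce, between 2.33 and 2.70 CPM in PTU and between 1.33 and 2.87 CPM in PTU+TH.

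Class 7 has a single member. Sema7a (ENSMUSG00000038264.8, chromosome 9, 57940112 to 57962865, plus strand) is held on the membrane by a lipid anchor and is known to signal through integrin beta-1 and PlexinC1. The gene stood at 8.05, 8.84, 7.67 and 7.52 CPM with PTU alone and at 20.5, 14.8, 14.8 and 11.8 CPM with TH added. The PTU mice were close to one another, while the PTU+TH mice spread more, with mouse 13 highest, and the groups did not overlap. The means were 8.02 ± 0.59 and 15.4 ± 3.65 CPM (SD, n = 4 each), a 1.93-fold rise (log2 ratio 0.94 with SE 0.17 and edgeR adjusted p = 0.0106). Sema7a was called under each of the 17 alternatives run for single genes, with adjusted p-values of up to 0.0433. Its rise, like that of Cntn2 further on, was already known from earlier results of these libraries and is not independent support.

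The genes of PlexinC1 and integrin beta-1 were both measured. Plxnc1 (PlexinC1) stood at 134, 136, 170.2 and 169.9 CPM in the PTU mice, against 112, 115, 105 and 138 CPM after TH. In 3 of 4 PTU+TH mice it lay below all PTU mice, and mouse 16 overlapped with mice 9 and 10 (log2 ratio -0.38 with SE 0.12 and edgeR adjusted p = 0.136). Itgb1, the integrin beta-1 gene, which was chosen for naming after its values were seen, averaged 68.6 ± 6.18 CPM without and 67.0 ± 1.71 CPM with TH (SD over 4 mice per group), and its log2 ratio was -0.04 with an SE of 0.09.

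**Figure D3:**
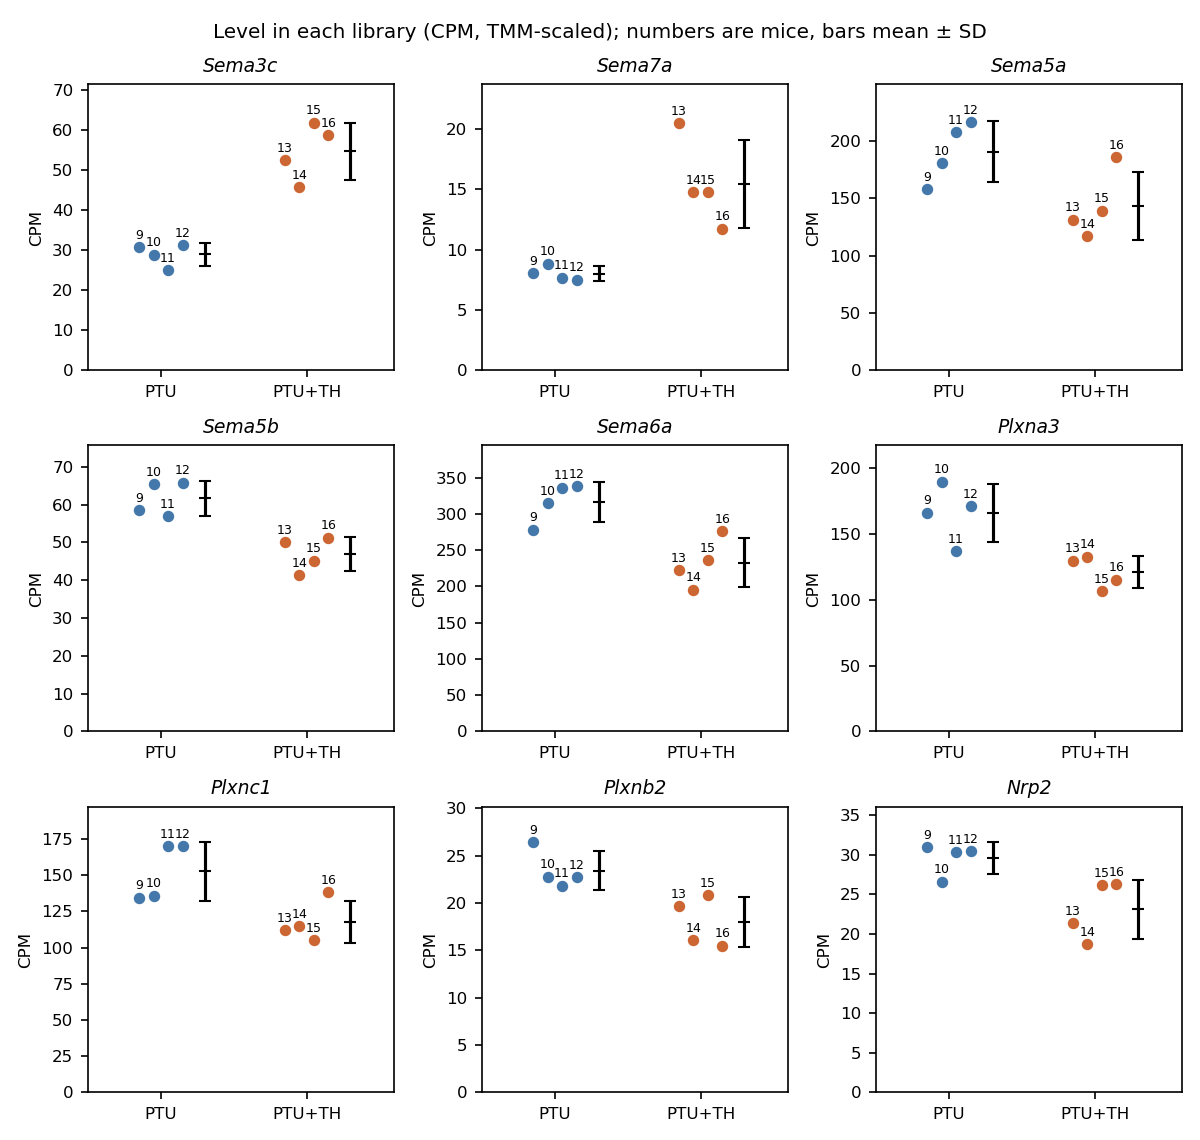
CPM in each library for 9 genes, with mouse numbers beside the points and the mean ± SD of each group (n = 4) as a bar. Sema3c and Sema7a are higher in all 4 PTU+TH mice than in any PTU mouse, and Sema5b, Sema6a, Plxna3, Plxnb2 and Nrp2 are lower in all 4. Sema5a and Plxnc1 overlap through mouse 16.

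The promoters of Sema7a, the ligand called under every alternative, and of Plxna3, the receptor with the smallest adjusted p, are shown because the thyroid hormone receptor is known to bind the hexamer AGGTCA, often as a direct repeat, AGGTCA followed by any 4 bases and AGGTCA again, on either strand. Each line gives the 250 bases before the start of transcription in RefSeq (GRCm38.p6), 5′ to 3′, at chr9:57939862-57940111 (plus strand) for Sema7a and chrX:74328816-74329065 (plus strand) for Plxna3. Capitals mark GGGCGG, the GC box known to bind Sp1-type factors, on either strand.
Sema7a: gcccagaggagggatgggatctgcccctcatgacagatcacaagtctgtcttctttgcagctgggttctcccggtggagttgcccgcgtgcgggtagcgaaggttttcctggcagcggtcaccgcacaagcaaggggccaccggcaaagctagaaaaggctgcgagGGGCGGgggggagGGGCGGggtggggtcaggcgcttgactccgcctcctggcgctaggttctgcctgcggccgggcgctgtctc
Plxna3: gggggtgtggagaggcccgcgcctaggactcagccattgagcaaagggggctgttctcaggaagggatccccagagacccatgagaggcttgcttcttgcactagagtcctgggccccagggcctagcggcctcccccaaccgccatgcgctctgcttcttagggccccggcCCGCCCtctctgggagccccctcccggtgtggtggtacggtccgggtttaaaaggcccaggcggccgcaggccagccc

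Neither window holds AGGTCA on either strand. The RefSeq window of Sema3c is not described singly, because all its 250 bases lie in an annotated exon of that gene, but it is counted among the windows that follow. The RefSeq table held 37 windows for 26 of the 31 genes. AGGTCA occurred on either strand in 7 of these 37 windows (18.9%), those of Nrp1, Plxnb2, Plxnd1, Sema4b, Sema4d, Sema5a and Sema6b, against 14.0% of all 32851 windows of the same length. The spaced pair occurred in 0 of 37 and in 0.015% of all windows. GGGCGG occurred 2 times in the Sema7a window and once in that of Plxna3, and in 27 of the 37 windows (73.0%) against 32.7% of all. The median GC content was 64.0% in these windows and 52.4% over all windows, and there were 17 CpG dinucleotides in the Sema7a window and 12 in that of Plxna3, against a median of 6 over all. A match of letters is only a description of these windows.

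Of the transmembrane ligands of classes 4 to 6, 0 of 12 were called, near the 2.12% of all genes tested. Sema5a and Sema5b, which carry thrombospondin repeats, both had lower means in PTU+TH. Sema5b stood at 58.5, 65.4, 57.0 and 65.8 CPM with PTU alone and at 50.1, 41.3, 45.2 and 51.2 CPM with TH added, with no overlap (log2 ratio -0.39 with SE 0.10 and edgeR adjusted p = 0.0562). Sema5a stood at 158, 180.3, 208 and 216 CPM in the PTU mice, against 131, 117, 139 and 186 CPM after TH, so that mouse 16 overlapped with mice 9 and 10 (log2 ratio -0.41 with SE 0.14 and edgeR adjusted p = 0.213).

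In class 6, whose members bind A-type plexins directly, Sema6a had a negative log2 ratio and the other 3 positive ones. Sema6a stood at 278, 315, 336 and 338 CPM with PTU alone and at 222, 195, 236 and 276 CPM with TH added. All 4 PTU+TH values were lower, by a narrow margin between PTU mouse 9 and PTU+TH mouse 16 (log2 ratio -0.45 with SE 0.12 and edgeR adjusted p = 0.0892). Sema6b, Sema6c and Sema6d had positive log2 ratios of 0.03, 0.12 and 0.28, with SEs of 0.09, 0.09 and 0.20. Sema6d varied widely within PTU, with 290.5 and 357 CPM in mice 9 and 10 and 546 and 476 CPM in mice 11 and 12.

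Of the 6 class 4 genes, which bind mostly B-type plexins, 5 had negative log2 ratios between -0.28 (Sema4c, a ligand of PlexinB2) and -0.09 (Sema4g), and that of Sema4d, the ligand of PlexinB1, was 0.04 with an SE of 0.10. The class 4 genes had 0 with an unadjusted p under 0.05, against 12.8% of all genes. All 6 overlapped between the groups, where 8.71% of all genes did not. Their highest mean in PTU was that of Sema4g, 79.7 ± 18.2 CPM (SD, n = 4), and their lowest that of Sema4c, 15.3 ± 1.62 CPM.

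Of the 9 plexins, 0 were called, near the 2.12% of all genes tested. Log2 ratios were positive for 3 and negative for 6. Of the negative ones, 4 had an unadjusted p under 0.05 (44.4% of the plexins, against 12.8% of all genes in either direction). Plxna3 (chromosome X, 74329066 to 74344689, plus strand) stood at 166, 189.9, 137 and 171 CPM in the PTU mice, against 129.9, 133, 107 and 115 CPM after TH. The groups did not overlap, with PTU mouse 11 just above PTU+TH mouse 14, and mice 15 and 16, which lack Y-linked counts, were the lowest (log2 ratio -0.46 with SE 0.11 and edgeR adjusted p = 0.0581). Among the 6 libraries with Y-linked counts this X-linked gene had a log2 ratio of -0.34 and an edgeR adjusted p of 0.514. The part of sex in its values was not tested otherwise.

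The other A-type plexins, the receptors that pair with neuropilins, went in no common direction. Plxna4 stood at 471, 534, 829 and 766 CPM with PTU alone and at 723, 738, 760.4 and 933 CPM with TH added, and the spread within PTU was larger than the difference of the means (log2 ratio 0.28 with SE 0.19 and edgeR adjusted p = 0.619). Plxna2 had means of 393 ± 78.1 and 402 ± 33.0 CPM and Plxna1 of 50.2 ± 5.36 and 44.0 ± 1.66 CPM (SD, n = 4 each), with overlapping libraries. Plxna1 overlaps other genes the most of the 31, with 72.5% of its length free, so its counts are less certain.

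Among the B-type plexins, the receptors of class 4 ligands, Plxnb2 stood at 26.4, 22.8, 21.8 and 22.7 CPM in the PTU mice, against 19.6, 16.1, 20.8 and 15.5 CPM after TH. All 4 PTU+TH values were lower (log2 ratio -0.38 with SE 0.13 and edgeR adjusted p = 0.187). Plxnb1 had means of 14.4 ± 1.30 and 10.4 ± 2.66 CPM (SD, n = 4 each), with 3 of 4 PTU+TH mice below all PTU mice (log2 ratio -0.47 with SE 0.18 and edgeR adjusted p = 0.255). Plxnb3 was scarce, and its values ran from 0.394 to 2.07 CPM in PTU and from 0.997 to 3.18 CPM in PTU+TH (log2 ratio 0.89 with SE 0.47 and edgeR adjusted p = 0.492). Plxnb3 is known from oligodendrocytes, and its highest library, PTU+TH mouse 15, was also the highest for the summed oligodendrocyte markers, at 193 CPM against 94.4 to 125 CPM in the other 7 libraries. Mouse 15 was likewise highest for the summed markers of astrocytes (372 CPM), oligodendrocyte precursors (33.0), microglia (33.5) and excitatory neurons (320). Within PTU, Plxnb3 was highest in mouse 10 and the oligodendrocyte sum in mouse 9. The part of any of these cells in the values of Plxnb3 was not tested.

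Of the neuropilins, Nrp2, the co-receptor preferred by Sema3f, stood at 30.96, 26.6, 30.3 and 30.5 CPM with PTU alone and at 21.4, 18.7, 26.2 and 26.3 CPM with TH added. The groups did not overlap, with PTU mouse 10 close to PTU+TH mice 15 and 16 (log2 ratio -0.36 with SE 0.13 and edgeR adjusted p = 0.214). Nrp1, the co-receptor preferred by Sema3a, stood at 49.1, 55.5, 64.6 and 50.1 CPM in the PTU mice, against 58.1, 32.3, 56.7 and 54.4 CPM after TH. Apart from mouse 14, its PTU+TH values lay within the PTU range (log2 ratio -0.12 with SE 0.17 and edgeR adjusted p = 0.861), and without that mouse the log2 ratio was 0.04.

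Neuropilins also bind members of the vascular endothelial growth factor (VEGF) family. Of 5 VEGF genes tested, 2 rose and 0 fell, where 2.12% of all genes were called in either direction. Vegfa stood at 34.4, 36.3, 31.3 and 30.4 CPM with PTU alone and at 67.2, 64.8, 63.9 and 58.2 CPM with TH added, with no overlap (log2 ratio 0.94 with SE 0.09 and edgeR adjusted p = 0.000145). Vegfc, a ligand of Nrp2, had 10.96, 11.7, 10.5 and 10.5 CPM in PTU mice and 17.0, 17.7, 17.99 and 19.7 CPM in PTU+TH mice. It rose from a mean of 10.9 ± 0.56 CPM to 18.1 ± 1.15 CPM (SD over 4 mice per group), also with no overlap (log2 ratio 0.73 with SE 0.12 and edgeR adjusted p = 0.00569). Pgf, a ligand of Nrp1 named here after its values were seen, stood at 7.25, 5.91, 3.22 and 5.07 CPM with PTU alone and at 3.46, 2.34, 2.86 and 2.71 CPM with TH added. It overlapped only through mice 11 and 13, was not called (log2 ratio -0.92 with SE 0.25 and edgeR adjusted p = 0.0923), and was called with DESeq2, with the length offset and without PTU mouse 11. Vegfb and Vegfd overlapped between the groups.

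Co-receptors and signalling proteins of the pathway were counted from a list. Of 13 tested co-receptors and other partners, 1 was called higher and 0 lower, and of 26 intracellular signalling genes 0 were called. With the VEGF genes this made 3 of 44 (6.82%, against the 2.12% of all genes given above), and 9 of 44 did not overlap between the groups (20.5%, against 8.71%), 7 of them higher and 2 lower in PTU+TH. The called co-receptor gene was Cntn2 (contactin-2), with 59.2, 58.5, 64.2 and 65.1 CPM in PTU mice and 86.5, 89.8, 92.0 and 79.7 CPM in PTU+TH mice. It rose from a mean of 61.7 ± 3.42 CPM to 87.0 ± 5.40 CPM (SD over 4 mice per group, log2 ratio 0.50 with SE 0.08 and edgeR adjusted p = 0.00672). L1cam and Chl1, adhesion molecules that join neuropilins in some receptor complexes, had negative log2 ratios. L1cam, X-linked like Plxna3, had 261, 288, 233 and 249.7 CPM in PTU and 201.3, 201.4, 163 and 194 CPM in PTU+TH, with no overlap (log2 ratio -0.44 with SE 0.11 and edgeR adjusted p = 0.0522), and was called under 7 of 17 alternatives. Chl1 did not overlap either (log2 ratio -0.35, edgeR adjusted p = 0.205) and was called only with the length offset.

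Among the 26 signalling genes, 3 (11.5%, near the 8.71% of all genes) did not overlap between the groups, each higher in PTU+TH and short of the threshold. Mical2, an actin-oxidising enzyme of the MICAL family that acts below plexins, had means of 446 ± 35.9 and 591 ± 38.9 CPM (SD over 4 mice per group, log2 ratio 0.41 with SE 0.12 and edgeR adjusted p = 0.114). Rnd1, a small GTPase that binds plexins, had a log2 ratio of 0.38 (SE 0.14, edgeR adjusted p = 0.228) and Rap1gap, which inactivates Rap1, one of 0.41 (SE 0.10, edgeR adjusted p = 0.0616). Rap1gap was called under 4 of 17 alternatives and Mical2 only with DESeq2. Cd72, known as a Sema4d receptor of B cells, also did not overlap, but reached at most 1.045 CPM in a library (edgeR adjusted p = 0.129).

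Sema3g and Plxnd1 are known from blood vessels and were read beside endothelial markers. Sema3g had 1, 26, 1 and 0 counts in PTU mice 9 to 12 and 5, 4, 4 and 2 counts in PTU+TH mice 13 to 16. Only PTU mouse 10 stood out, and the gene was too scarce for a test. Plxnd1 stood at 5.17, 9.26, 4.40 and 2.27 CPM in the PTU mice, against 6.66, 3.09, 6.95 and 3.09 CPM after TH, with overlapping groups (log2 ratio -0.10 with SE 0.41 and edgeR adjusted p = 0.966). The 7 endothelial markers, of which 0 were at 0 in all libraries, summed to 55.7, 156, 46.0 and 35.6 CPM in PTU and to 82.4, 34.6, 112 and 48.6 CPM in PTU+TH. Mouse 10 was highest for Sema3g, Plxnd1 and the sum of these markers, and mice 13 and 15 were the highest of PTU+TH for Plxnd1 and the sum. Taken singly, Flt1 of this list was highest in mouse 15 (27.8 CPM, against 27.2 in mouse 10). The summed mural-cell markers had the same highest mice, at 96.5 CPM in mouse 10 and 57.05 and 71.05 CPM in mice 13 and 15. Those of meningeal fibroblasts were also highest in mouse 10 (7.15 CPM). The part of RNA from any of these cells in the values was not tested. Without mouse 10 the log2 ratio of Plxnd1 was 0.33.

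**Figure D4:**
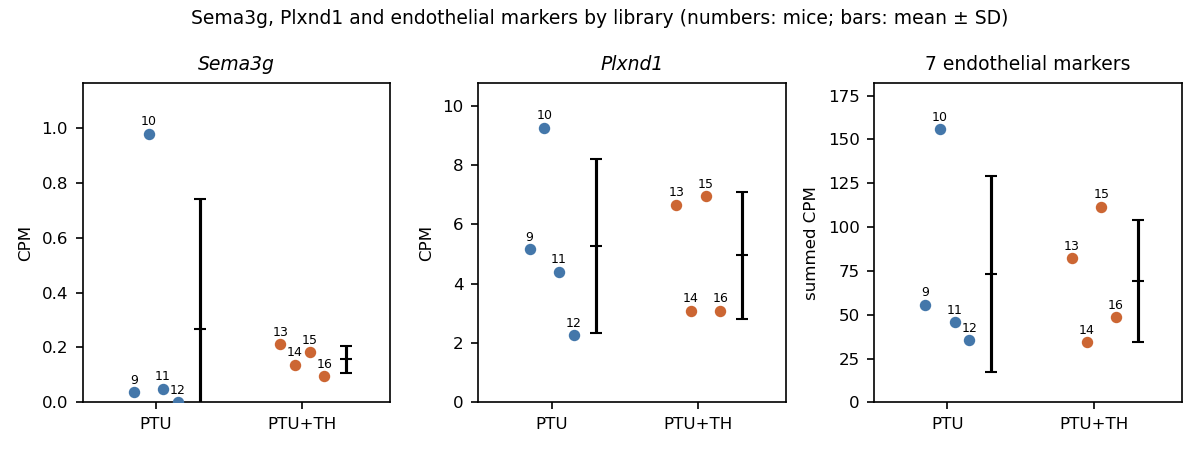
CPM of Sema3g and Plxnd1 and the summed CPM of 7 endothelial markers in each library, with mouse numbers beside the points and the mean ± SD of each group (n = 4) as a bar. PTU mouse 10 is highest in all 3 panels, at 0.979, 9.26 and 156 CPM.

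The number of genes called moved with the fit. In place of 2, there were 5 with DESeq2, which added Plxna3, Sema5b and Sema6a on the lower side (adjusted p = 0.00822, 0.0108 and 0.0114). An offset for gene-body length, fitted in each library over all genes, gave 8 calls, 3 higher and 5 lower. Beside Sema3c and Sema7a these were Plxna4 on the higher side (log2 ratio 0.26, edgeR adjusted p = 0.0465) and Sema6a, Sema5a, Plxnc1, Plxna3 and Sema5b on the lower side, with edgeR adjusted p-values of 0.00326, 0.00714, 0.00915, 0.0121 and 0.0284. Within PTU, mice 9 and 10 both lay below mice 11 and 12 in 13 of the 31 genes, whose bodies ran from 13.6 kb (Sema6c) to 578 kb (Sema6d), and both above them in 8 of 9.71 to 40.2 kb. The 13 include Plxna4, Sema5a, Sema6a and Plxnc1, called with the offset, but neither Plxna3 nor Sema5b. The summed markers of the parvalbumin (PV) class of interneurons, most of whose CPM is Kcnc2, had the same order, at 1767, 1897, 3154 and 2774 CPM in PTU mice 9 to 12 and 2008, 2320, 2387 and 2990 CPM in PTU+TH mice 13 to 16. The order was not particular to these markers, since Cux2 of the excitatory and Drd2 of the striatal list had it too. The LAMP5-class sum also had it (1274, 1219, 1281 and 1363 CPM in PTU mice 9 to 12), but only through Reln (909, 923, 1086 and 1165 CPM). Lamp5, Ndnf, Id2, Npy and Gabrd of that list went the other way, with mice 9 and 10 above 11 and 12. Of the 6 detected PV-class markers, Pvalb, Syt2, Kcnc1 and Kcnc2 shared that order, while Tac1 and Nefh did not. Mouse 16 was the highest of PTU+TH for the sum, though not for Syt2 or Nefh, and for Plxna4, Sema6d, Plxna2, Sema5a, Sema6a and Plxnc1. The part of PV-class cells in these values was not tested. The 5 genes on the lower side kept negative log2 ratios under all 17 alternatives.

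**Figure D5:**
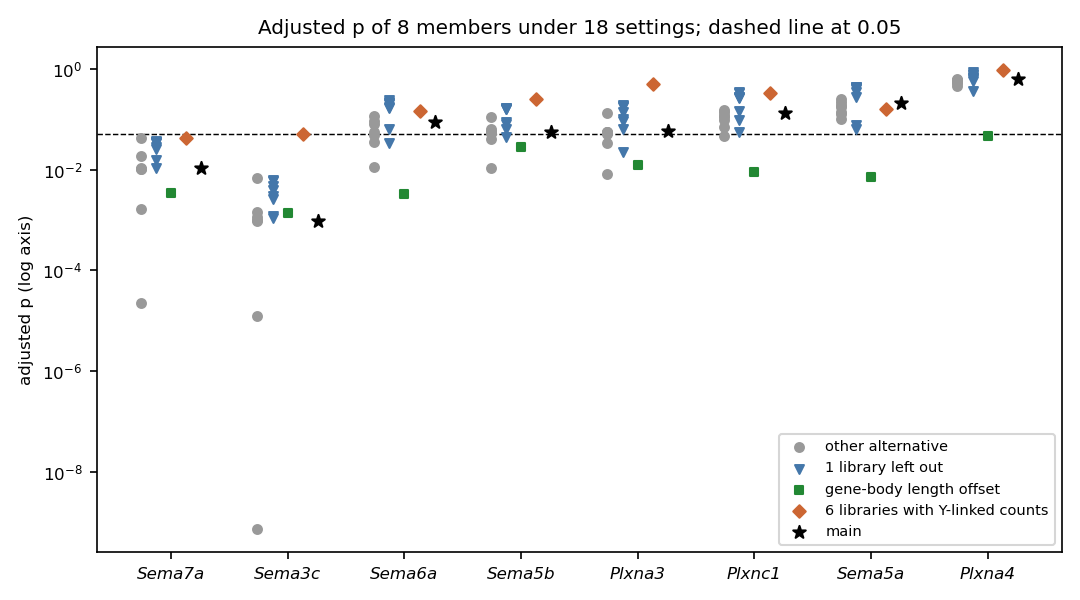
Adjusted p on a log axis for the 8 genes called under at least 1 setting, with a star for the fit as reported, triangles for 1 library left out, squares for the length offset, diamonds for the 6 libraries with Y-linked counts, circles for the other alternatives and a dashed line at 0.05. Sema7a lies below the line throughout, Sema3c lies just above it once, at 0.0504 in the 6 libraries with Y-linked counts, and the other 6 cross it in some settings only.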

How the data were processed

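The authors deposited whole-number read counts for each gene symbol, 1 file per library, with 0 rows that name no gene. Bowtie2 2.5.3 and the builds mm10 and GRCm38 are named, per the submitters' processing notes. The counting program, its annotation, strand and introns are not given in the sources used here. Per the labels' protocols, SMART-Seq v4 cDNA and Nextera XT libraries were sequenced from 1 end. The symbols were identical to those of GENCODE M21 (GRCm38), which gave positions and lengths. All 1265 protein-coding genes with 1 identifier that lie inside another gene were at 0 in every library (100%), against 21.5% of 11727 that share no base with another, and 30 of the 31 genes described had over 90% of their body free.

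The test was that of edgeR 4.0.16 (R 4.3.3) with filterByExpr, trimmed-mean-of-M-values (TMM) scaling, and robust quasi-likelihood F tests with the group as the only term over 17355 genes. Adjustment was by Benjamini-Hochberg, and called means an adjusted p under 0.05. CPM values were computed here from the deposited counts. The SE is the log2 ratio divided by the square root of its F. Called genes numbered 368 (258 higher, 110 lower). Replicates are mice whose litters the labels leave out, so p-values measure the spread between these mice, and chi-square per degree of freedom was at least 8.38 in the 12 pairs within groups, so no library repeated another. The scripts were tested on simulated data.

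Alternatives were other scalings, filters and tools (DESeq2 1.42.0, limma 3.58.1 voom with sample quality weights), leaving out each library, the libraries with Y-linked counts, an offset for gene-body length and a threshold of 0.1. Of the listed signalling genes, those called or not overlapping are named. Of the 31 genes, values per library are given for those called, not overlapping between groups, called under an alternative, or lowest and highest per length, and also for Sema3e, Nrp1 and Plxnd1, chosen after their values were seen. The genes, lists and alternatives were chosen with earlier results of these data known. Groups come from the sample titles.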

Additional observations from a re-analysis of the deposited data

Results flagged for a closer look

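In the 62 sets of 4 libraries (31 genes in 2 groups), 6 had a single library far from the other 3, where chance, at about 1 in 20, gives 3.1. In brackets stands how much of the spread of the 4 libraries lies between that library and its nearest neighbour. Mouse 10 of PTU had 0.979 CPM of Sema3g, and the other 3 had 0 to 0.0495 (0.949). Mouse 14 of PTU+TH had 32.3 CPM of Nrp1, below 54.4 to 58.1 (0.857). Mouse 10 of PTU had 26.6 CPM of Nrp2, below 30.3 to 30.96 (0.855). Mouse 13 of PTU+TH had 50.9 CPM of Sema4f, above 46.2 to 46.55 (0.927). Mouse 16 of PTU+TH had 6.66 CPM of Sema3f, below 8.69 to 9.09 (0.835), and mouse 11 of PTU had 2.33 CPM of Sema3b, below 2.63 to 2.70 (0.834).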

How the results depend on the processing

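No paired analysis was possible because the groups share no mouse number. Against 2 of the semaphorin, plexin and neuropilin genes called, there were 4 (2 higher, 2 lower) with library totals only, 5 (2 and 3) with DESeq2, 4 (2 and 2) with limma voom and sample quality weights, 8 (3 and 5) with the length offset, 5 (2 and 3) at an adjusted p under 0.1, 1 (1 and 0) among the 6 libraries holding Y-linked counts, and from 2 to 4 with 1 library dropped (4 without PTU mouse 9). Against 368 of all genes (258 higher, 110 lower), there were 756 (464 and 292) with DESeq2, 700 (436 and 264) with the length offset, 601 (383 and 218) at 0.1, 58 (52 and 6) in the 6 libraries, and from 182 to 499 (without PTU mouse 9) with 1 library dropped, including 233 without PTU mouse 12 and 238, 227, 182 and 209 without PTU+TH mice 13 to 16. Against 3 co-receptor, signalling and VEGF genes, there were 5 with a mean of at least 1 CPM, 7 with DESeq2, 7 with the length offset, 6 at 0.1, 1 in the 6 libraries (Vegfa), and from 3 to 5 (without PTU mouse 11) with a library left out. The looser threshold calls more genes by construction. The fit of the 6 libraries has fewer mice and also leaves out those without Y-linked counts, which cannot be told apart here. Otherwise the cause was not tested.

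Over 510 fits of single genes under an alternative, 476 kept their direction and side of 0.05, 17 passed it, 1 lost the call (Sema3c, 0.0504) and 16 changed direction, none of them a called gene. With the 6 libraries, the log2 ratio of Plxna2 was -0.045 and that of Sema4g 0.023. With 1 library dropped, log2 ratios ran from -0.059 to 0.129 for Plxna2, from -0.017 to 0.097 for Sema4d, from -0.349 to 0.325 for Plxnd1, from -0.105 to 0.058 for Sema3a, from -0.259 to 0.044 for Sema3d, from -0.210 to 0.034 for Sema4g, from -0.006 to 0.110 for Sema6b and from -0.197 to 0.044 for Nrp1. The 3 other scalings put the median of all genes between -0.028 and 0.0063. At 0 to 26 counts per library, Sema3g is too shallow to compare.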
